A study of Mus musculus with 6 samples.

Results

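Secreted factors and receptors through which bone marrow supports plasma cells and myeloma cells were examined in whole marrow of SCID/Bg mice. The set held 9 genes: Il6, Il6st, Tnfsf13, Tnfsf13b, Tnfrsf11b, Hgf, Ccl3, Dkk1 and Sdc1. Every probe set whose array annotation names exactly 1 gene symbol from this set was taken, which gave 20 of 45037 probe sets and 8 of the 9 genes. Tnfsf13, encoding APRIL, had none of its own: the 1 probe set that carries its symbol lists 3 symbols and was not used for any of them.

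The marrow of 3 untreated animals was compared with that of 3 animals treated with NOX-A12, all of the SCID/Bg strain, which combines the scid and beige mutations. NOX-A12 is a mirror-image RNA aptamer that binds the chemokine CXCL12, and it has been studied as a way to alter the marrow niche in which myeloma cells settle. Each mouse had 1 Affymetrix Mouse Genome 430 2.0 array. No age, sex, dose or dosing schedule is stated in the labels. Each array holds a separately numbered mouse, and p-values therefore measure the spread between animals. Scid blocks the joining of antigen-receptor genes, so these mice make almost no mature B cells or plasma cells, and the set was read here mainly as a set of niche factors.

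Plasma cells and myeloma cells depend on signals from neighbouring stromal, myeloid and bone cells. IL-6 signals through its receptor and the shared subunit gp130 to STAT3. On B-lineage cells, BAFF binds the receptors BCMA, TACI and BAFF-R, and APRIL binds BCMA and TACI. HGF acts through MET, and syndecan-1, a heparan sulfate proteoglycan that marks plasma cells, can hold HGF and APRIL at the cell surface. CCL3, DKK1 and osteoprotegerin govern bone turnover, which is disturbed in myeloma: CCL3 attracts and activates osteoclast precursors, DKK1 blocks Wnt signalling in osteoblasts, and osteoprotegerin traps the osteoclast ligand RANKL.

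The promoters of the 3 genes whose treated and untreated mice did not overlap at the leading probe set, Il6st, Tnfsf13b and Sdc1, are shown with that of Il6, the best known of the niche cytokines. Each runs 5′ to 3′ on the gene's strand, from 250 bases before to 50 bases after the annotated start (RefSeq, GRCm38.p6), all on the plus strand. Capitals mark matches on either strand to GGNNTTTCC, a pattern within NF-kappaB sites, or GAAANNGAA, a pattern within interferon-response elements.
Il6st, chr13:112463820-112464119: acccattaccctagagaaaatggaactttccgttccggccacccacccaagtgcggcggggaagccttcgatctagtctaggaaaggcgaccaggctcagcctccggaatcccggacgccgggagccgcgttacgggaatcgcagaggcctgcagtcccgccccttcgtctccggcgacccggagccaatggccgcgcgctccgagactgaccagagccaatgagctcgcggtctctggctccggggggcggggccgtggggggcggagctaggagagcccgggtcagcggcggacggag
Tnfsf13b, chr8:10006383-10006682: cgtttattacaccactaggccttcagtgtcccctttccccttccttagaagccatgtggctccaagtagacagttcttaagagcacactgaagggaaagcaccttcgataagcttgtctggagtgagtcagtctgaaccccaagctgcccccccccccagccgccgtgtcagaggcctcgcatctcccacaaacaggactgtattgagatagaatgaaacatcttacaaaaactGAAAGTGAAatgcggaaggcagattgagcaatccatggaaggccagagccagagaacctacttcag
Sdc1, chr12:8771146-8771445: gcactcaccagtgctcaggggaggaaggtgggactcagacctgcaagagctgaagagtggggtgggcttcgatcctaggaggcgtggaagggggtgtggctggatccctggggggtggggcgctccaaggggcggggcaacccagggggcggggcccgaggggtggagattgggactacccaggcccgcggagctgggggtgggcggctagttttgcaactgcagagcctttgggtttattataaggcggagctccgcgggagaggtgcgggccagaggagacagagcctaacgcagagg
Il6, chr5:30012864-30013163: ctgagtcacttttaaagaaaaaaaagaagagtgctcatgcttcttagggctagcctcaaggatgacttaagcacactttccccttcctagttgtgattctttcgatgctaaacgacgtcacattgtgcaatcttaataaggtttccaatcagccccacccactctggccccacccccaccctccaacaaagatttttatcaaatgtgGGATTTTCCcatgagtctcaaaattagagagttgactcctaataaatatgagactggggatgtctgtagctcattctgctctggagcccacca

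Promoter windows were matched for 8 of the 9 genes, in 10 windows. Tnfsf13b has several annotated starts, and the window with a match is shown. The interferon-response pattern was found for 2 genes against 8.56% of 32851 promoter windows of this length: in Tnfsf13b as GAAAGTGAA, beginning at position -16 from the start, and in Ccl3 on the other strand at -39. The NF-kappaB pattern was found for 1 gene, Il6, as GGATTTTCC at -43, against 5.82% of windows. TTCNNNGAA, a pattern of STAT sites, was searched on both strands and found in 0 of the 8 genes' windows, against 8.3% of all windows. The Il6st and Sdc1 windows hold no match to the 3 patterns, and no match overlaps another. These are matches of letters only, and the arrays do not measure binding.

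Median intensity lay between 44.8 and 45.6 on the 6 arrays. The values carry no detection calls, so a background level was taken from 84 probe sets of olfactory, vomeronasal and taste receptor genes, which marrow cells do not make: 95% of them had a mean intensity at or below 35.0. Of the 8 measured genes, 7 had at least 1 probe set above this level, and Tnfrsf11b did not. Each change is the mean log2(intensity + 16) of treated mice minus that of untreated mice, with its standard error (SE); the added 16 understates changes of dim probe sets. Arrays do not allow the level of 1 gene to be set against that of another. The array of untreated mouse 3 stood apart, with correlations of 0.982 to 0.985 to the other 5 arrays across probe sets, against 0.991 to 0.994 among those 5.

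At the probe set of highest mean, called the leading probe set, 4 of the 8 measured genes had a lower and 4 a higher mean in treated mice, where 52.8% of the leading probe sets of all 18193 genes had a lower mean. Il6st and Sdc1 were lower and Tnfsf13b was higher in all 3 treated mice than in any untreated mouse. Il6, Hgf, Ccl3, Dkk1 and Tnfrsf11b overlapped between the groups. In the limma test with Benjamini-Hochberg adjustment over all probe sets, 0 of the 20 member probe sets passed an adjusted p of 0.05, as did 0% of all 45037, and member adjusted p-values ran from 0.926 to 1. At an unadjusted limma p under 0.05 there were 3 of 20 member probe sets, where 4.97% of all probe sets had such a p. The groups did not overlap at 3 of 20 member probe sets, or 15%, against 9.85% of all. Counted by gene, that is 3 of 8 leading probe sets, against 10.6% of all genes. Of the 3, 2 were lower, where 6.65% of all genes were lower without overlap, and 1 was higher, where 3.92% were. The members were chosen with earlier results of these data known, so these shares do not test them as a set. The median change was -0.03 over the 20 probe sets and 0.00 over all.

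**Figure D1:**
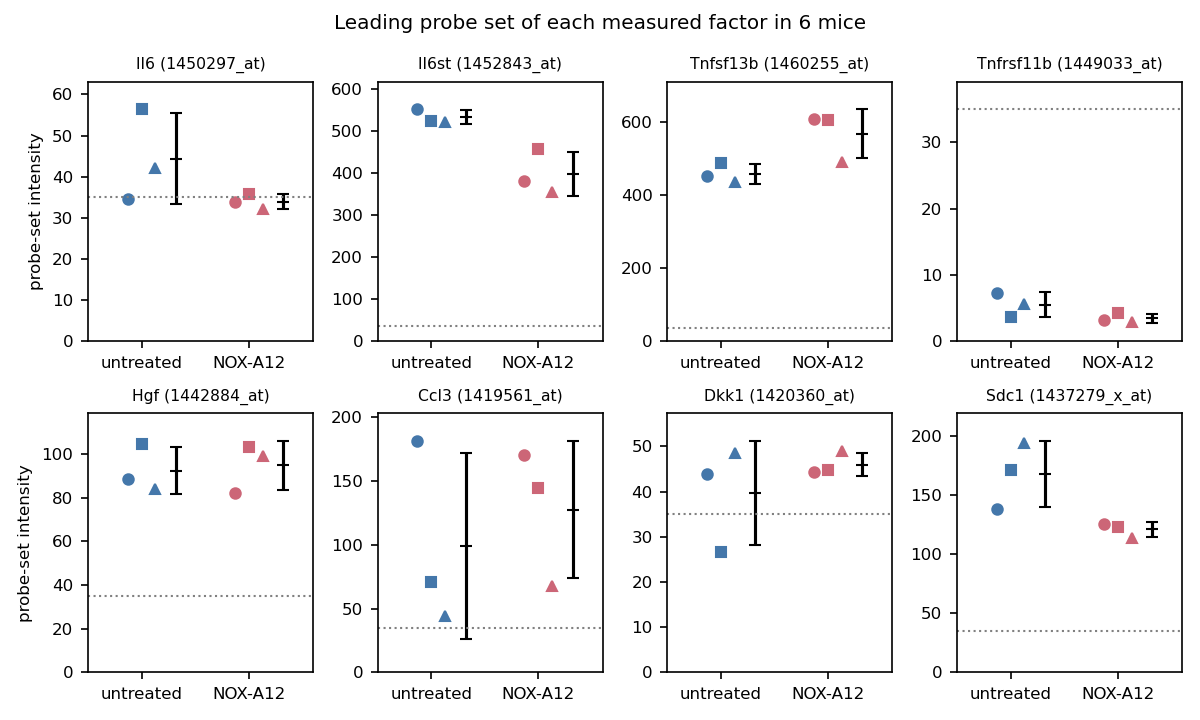
Probe-set intensity (linear axis from 0) at the leading probe set of each measured gene, with untreated mice in blue and NOX-A12 mice in red; circles, squares and triangles are mice 1, 2 and 3 of each group. Bars are the mean ± SD of 3 mice and the dotted line is the background level of 35.0. Il6st and Sdc1 are lower and Tnfsf13b is higher in every treated mouse, Ccl3 spreads from 44.5 to 181 in both groups together, and Tnfrsf11b lies below the line throughout.

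The IL-6 branch was described first. Il6 encodes the cytokine itself. Its only probe set read 34.5, 56.4 and 42.1 in untreated mice 1, 2 and 3, and 33.8, 35.8 and 32.1 in NOX-A12 mice 1, 2 and 3. These values lie around the background level, untreated mouse 2 is the highest, and the groups overlap through untreated mouse 1. The means were 44.3 ± 11.1 (SD, n = 3) without treatment and 33.9 ± 1.87 (SD, n = 3) with NOX-A12, a log2 change of -0.26 ± 0.14 (SE) with a 95% interval of -0.59 to 0.07. Without untreated mouse 2 it was -0.12, and without untreated mouse 1 it was -0.38, with an adjusted limma p of 0.620.

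Il6st encodes gp130, the subunit through which IL-6 and its relatives signal. Its leading probe set, 1452843_at, read 552, 524 and 523 in the untreated mice and 381, 456 and 355 in the treated mice. The untreated mice lay close together and every treated mouse was below them. The mean went from 533 ± 16.5 (SD, n = 3) to 397 ± 52.7 (SD, n = 3), a log2 change of -0.42 ± 0.11 (SE) with a 95% interval of -0.68 to -0.15. This was the smallest p among the members (limma unadjusted p = 0.00763, adjusted p = 0.926). The change ran from -0.52 to -0.34 when each mouse was left out in turn.

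The other Il6st probe sets did not share that difference. Probe set 1437303_at, also well above background, read 368, 401 and 218 in untreated and 293, 372 and 356 in treated mice. Here untreated mouse 3 was the lowest of the 6, and the change was 0.08 ± 0.22 (SE). The dimmer 1460295_s_at gave 0.10 ± 0.12 (SE), and 1421239_at, below background, gave -0.02 ± 0.16 (SE). The log2 difference between the brightest pair of probe sets within a mouse, 1452843_at minus 1437303_at, averaged 0.71 ± 0.43 (SD, n = 3) without treatment. It averaged 0.21 ± 0.19 (SD, n = 3) with NOX-A12. It was 0.56, 0.37 and 1.20 in untreated and 0.36, 0.28 and -0.0044 in treated mice. The groups were thus barely apart, and untreated mouse 3 stood far above the rest. The same difference for the brightest pairs of Tnfsf13b and Sdc1 overlapped between the groups. The Il6st difference was not tested. The mean over all 4 probe sets of the gene gave -0.06.

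Of 16 listed genes of IL-6 and gp130 signalling, 15 were measured. In the limma test 0 passed in either direction, 8 had a higher and 7 a lower mean, and the median change was 0.03. The ligand-binding receptor chain gene Il6ra gave 0.25 ± 0.13 (SE) at its leading probe set and 0.26 ± 0.15 (SE) at the other. Without untreated mouse 3 the leading value was 0.14. Clcf1, a gp130 cytokine gene, had the smallest p of the list. It read 95.7, 94.4 and 86.8 in untreated and 73.5, 63.1 and 68.2 in treated mice, with no overlap and a change of -0.36 ± 0.09 (SE; limma unadjusted p = 0.00598, adjusted p = 0.926).

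The BAFF and APRIL branch rested on BAFF alone. Tnfsf13b encodes BAFF, a survival factor for B-lineage cells that myeloid and stromal cells make. Its leading probe set, 1460255_at, read 452, 487 and 434 in untreated mice and 608, 604 and 490 in treated mice. NOX-A12 mouse 3 exceeded the highest untreated mouse by a few units only, while the other treated mice stood clear of it. The mean went from 458 ± 26.7 (SD, n = 3) to 568 ± 67.0 (SD, n = 3), a log2 change of 0.30 ± 0.12 (SE) with a 95% interval of 0.03 to 0.57. It did not pass (limma unadjusted p = 0.0360, adjusted p = 0.967). Leaving out NOX-A12 mouse 3 gave 0.40, and leaving out NOX-A12 mouse 1 gave 0.24.

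Dimmer Tnfsf13b probe sets differed from it. Probe set 1445251_at gave 0.10 ± 0.11 (SE) and 1458047_at gave -0.14 ± 0.15 (SE), and both overlapped between groups. The mean over the 3 probe sets was 0.09. The summed intensity of 8 measured monocyte and macrophage markers, all above background, was also higher in every treated mouse. It ran from 7424 to 8691 in untreated and from 8785 to 10675 in treated mice. Cd14 alone, a co-receptor for bacterial lipopolysaccharide, contributed 399 to 525 in untreated and 1420 to 2687 in treated mice, and 5 of the 8 markers had a lower mean in treated mice. The higher sum was therefore not shared by most of the markers. The part of these cells in the BAFF values was not tested.

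Receptors of BAFF and APRIL lie on B-lineage cells. Tnfrsf13c, encoding BAFF-R, read 85.1, 62.9 and 83.5 in untreated and 61.2, 60.3 and 58.3 in treated mice. The treated mice fell in a narrow range just under the lowest untreated mouse, and the change was -0.29 ± 0.12 (SE; limma unadjusted p = 0.0458, adjusted p = 0.967). Tnfrsf13b, encoding TACI, gave -0.11 ± 0.12 (SE) and -0.20 without untreated mouse 3, and Tnfrsf17, encoding the plasma cell receptor BCMA, was below background in both groups at 25.5 and 24.0. Of 11 listed genes of this branch, 9 were measured, 0 passed the limma test in either direction, and the median was 0.01. Tnfsf13b had the smallest p among them. The 7 measured B-lineage markers all had a lower mean in treated mice, with a median of -0.32. Among them, Ms4a1 was near background and almost unchanged, at -0.009. Their sum ran from 3464 to 4209 in untreated and from 2424 to 3299 in treated mice. Most of it came from Vpreb1, at 1752 in untreated and 1259 in treated mice, and Igll1, at 1165 and 781. The part of B-lineage cells in the Tnfrsf13c values was not tested. In whole marrow, fewer cells of a type and less RNA per cell cannot be told apart.

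**Figure D2:**
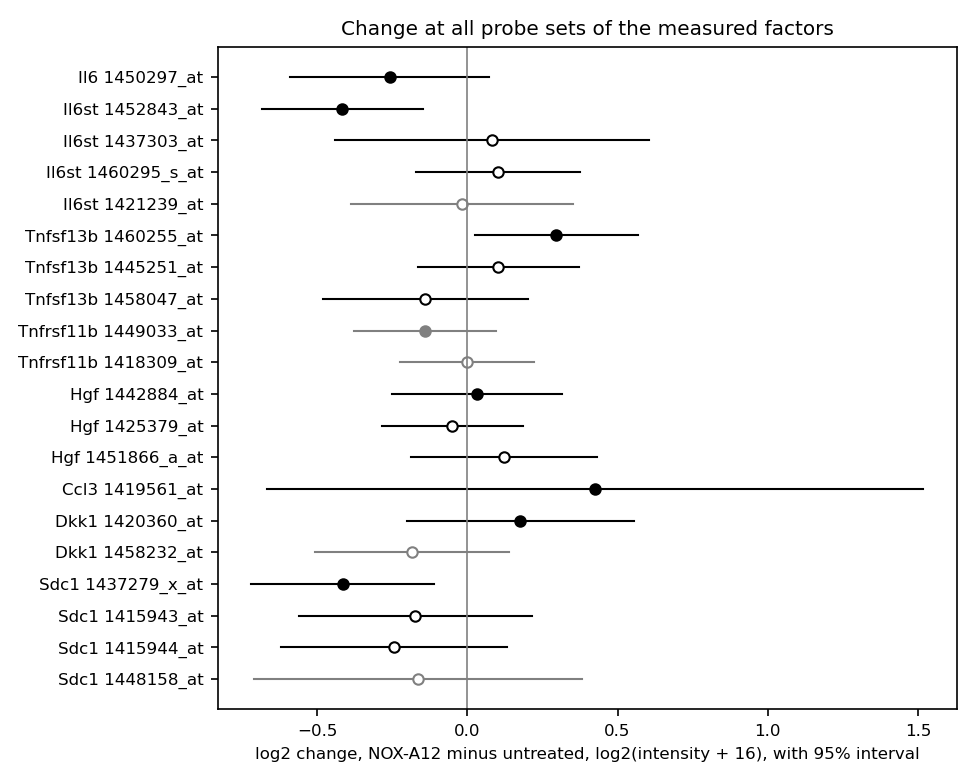
Log2 change (NOX-A12 minus untreated, horizontal axis) with its 95% interval from limma at all 20 probe sets of the 8 measured genes. Filled points are leading probe sets, open points the others, and grey marks probe sets at or below background in both groups. The intervals of 1 probe set each of Il6st, Tnfsf13b and Sdc1 exclude 0 before adjustment, and the other probe sets of these genes lie nearer to 0.

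Sdc1 encodes syndecan-1, also known as CD138. Its leading probe set, 1437279_x_at, read 138, 171 and 194 in untreated mice and 125, 123 and 114 in treated mice. Untreated mouse 3 was the highest, the treated mice lay close together, and the groups did not overlap. The mean went from 168 ± 28.0 (SD, n = 3) to 121 ± 6.09 (SD, n = 3), a log2 change of -0.42 ± 0.13 (SE) with a 95% interval of -0.72 to -0.11. It did not pass (limma unadjusted p = 0.0142, adjusted p = 0.967). The change was -0.31 without untreated mouse 3 and -0.54 without untreated mouse 1. The suffix of this probe set marks probes that can also match other transcripts. The other Sdc1 probe sets, without that suffix, had the same sign and overlapped: 1415943_at gave -0.17 ± 0.17 (SE), 1415944_at gave -0.24 ± 0.16 (SE), and 1448158_at, below background, gave -0.16 ± 0.23 (SE).

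Other syndecans are not plasma cell markers. Sdc3 read 574, 642 and 687 in untreated and 480, 361 and 542 in treated mice, a change of -0.46 ± 0.16 (SE) with no overlap. Sdc4 read 90.6, 102 and 147 in untreated and 83.7, 74.2 and 78.4 in treated mice, a change of -0.43 ± 0.16 (SE) with no overlap, although its other probe set gave -0.09 ± 0.11 (SE). Without untreated mouse 3 the leading Sdc4 value was -0.25. Sdc2 gave -0.05 ± 0.21 (SE). The heparan sulfate polymerase genes Ext1 and Ext2 gave 0.04 ± 0.13 (SE) and 0.03 ± 0.10 (SE), and the heparanase gene Hpse gave -0.19 ± 0.12 (SE). Of 8 listed syndecan and heparan sulfate genes, 7 were measured, 0 passed the limma test in either direction, and the median was -0.19. Sdc1 had the smallest p of this list.

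Markers of cells that could carry Sdc1 were read beside it. Of 10 plasma cell markers, 8 had a lower and 2 a higher mean in treated mice, with a median of -0.14, and 0 passed the limma test. Their summed intensity overlapped, from 3808 to 4103 in untreated and from 4026 to 4231 in treated mice, and most of it came from Xbp1, a secretory-pathway factor that is not confined to plasma cells, at 2776 in untreated and 3151 in treated mice. Sdc1 itself is 1 of the 10 markers. By group means, 9 of the 10 were above background and 1, Tnfrsf17, was not. Jchain, which links antibody multimers, averaged 45.7 in untreated and 36.9 in treated mice, and Mzb1, a chaperone of antibody secretion, averaged 535 and 446. All 10 stromal reticular markers had a lower mean in treated mice, with a median of -0.50, although Vcam1 was almost unchanged at -0.02. The sum of the 10 ran from 9101 to 11243 in untreated and from 7414 to 8725 in treated mice. Cxcl12, the gene of the chemokine that NOX-A12 binds, averaged 3790 in untreated and 2887 in treated mice. Vcam1 also counts among the monocyte and macrophage markers. All 8 endothelial markers had a lower mean, with a median of -0.47 and sums of 710 to 849 and 536 to 559. Of these, Pecam1 and Emcn were almost unchanged, at -0.005 and -0.03, and Tie1 was below background. Untreated mouse 3 had the highest stromal and endothelial sums, as it had the highest Sdc1 value. It also had the highest sum of 6 skeletal muscle markers, 453, against 83.8 to 145 in the other mice; Myh1 alone made up 355 of the 453, and 4 of the 6 markers were below background in both group means. The part of these cells in the Sdc1 and Il6st values was not tested.

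**Figure D3:**
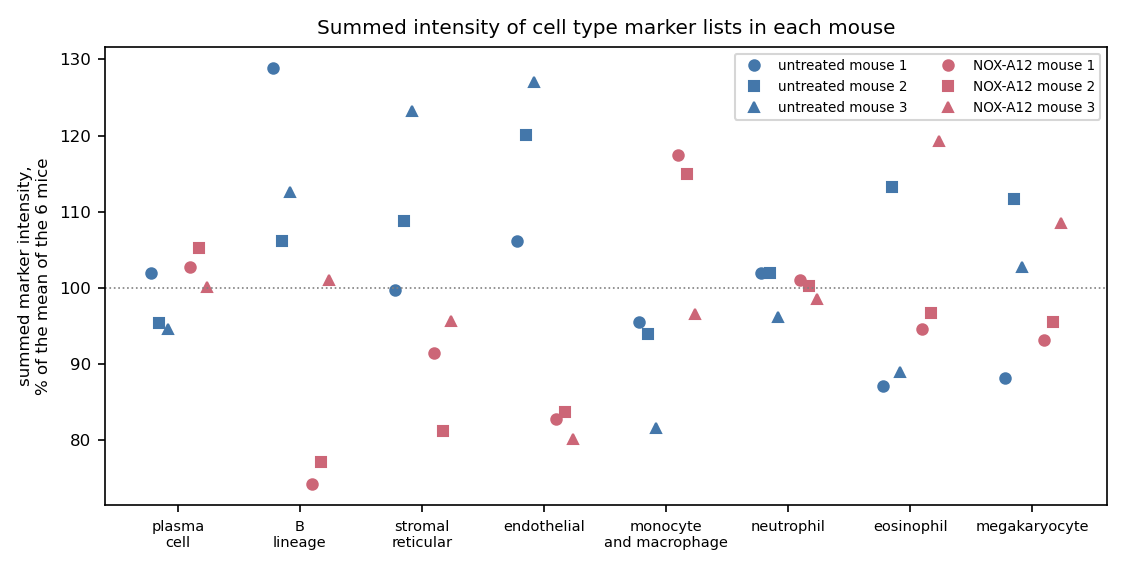
Summed intensity of marker lists of 8 cell types in each mouse, as a percentage of the mean of the 6 mice (vertical axis), with untreated mice in blue and NOX-A12 mice in red and a different symbol for mice 1, 2 and 3. The B-lineage, stromal reticular and endothelial sums are lower and the monocyte and macrophage sum is higher in every treated mouse, while the plasma cell sums overlap. In the monocyte and macrophage sum, Cd14 alone holds 399 to 525 in untreated and 1420 to 2687 in treated mice. Of the 8 markers in that sum, 5 have a lower mean in treated mice. Vpreb1 and Igll1 make up most of the B-lineage sum. Vcam1 counts in both the stromal reticular and the monocyte and macrophage sums.

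Hgf encodes hepatocyte growth factor, a ligand that stromal and myeloma cells release. Its leading probe set, 1442884_at, read 88.6, 105 and 84.0 in untreated and 82.2, 103 and 98.9 in treated mice. The groups covered the same range, and the change was 0.03 ± 0.12 (SE) with a 95% interval of -0.25 to 0.31, and -0.02 without untreated mouse 3. Its other probe sets gave -0.05 ± 0.10 (SE) and 0.12 ± 0.13 (SE), so no probe set differed beyond its error. Met, the gene of the HGF receptor, read 234, 193 and 173 in untreated and 265, 271 and 243 in treated mice, all treated mice being above the untreated ones. Its change was 0.36 ± 0.12 (SE; limma unadjusted p = 0.0220, adjusted p = 0.967), while its other probe set, below background, gave -0.13 ± 0.13 (SE). Of 8 listed genes of HGF activation and signalling, all were measured, 0 passed the limma test in either direction, Met had the smallest p, and the median was -0.01.

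Ccl3 encodes MIP-1 alpha, a chemokine of activated myeloid cells that promotes osteoclasts in myeloma. Its probe set read 181, 70.6 and 44.5 in untreated and 171, 144 and 67.8 in treated mice. Untreated mouse 1 and NOX-A12 mice 1 and 2 were high and the other mice low, so both groups held high and low animals. The log2 SD was 0.87 among untreated and 0.61 among treated mice, the widest among the leading probe sets. The change was 0.42 ± 0.47 (SE) with a 95% interval of -0.67 to 1.52. It was 0.91 without untreated mouse 1, 0.05 without untreated mouse 3, 0.20 without NOX-A12 mouse 1 and 0.77 without NOX-A12 mouse 3.

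The related chemokine gene Ccl4 gave 0.04 ± 0.13 (SE) and did not show that spread, at 44.4 to 65.7 over the 6 mice. Ccr1, the receptor gene for CCL3 on osteoclast precursors and neutrophils, gave 0.11 ± 0.12 (SE) at both the leading probe set and, with an SE of 0.22, the other; the leading value was 0.04 without untreated mouse 3. Ccl9, another CCR1 ligand, had the smallest p of this list. It read 858, 826 and 795 in untreated and 1078, 1213 and 892 in treated mice, with no overlap and a change of 0.34 ± 0.13 (SE; limma unadjusted p = 0.0291, adjusted p = 0.967). Of 6 listed genes, 5 were measured, 0 passed the limma test in either direction, and the median was 0.11.

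Dkk1 encodes a secreted Wnt antagonist made by myeloma and stromal cells. Its leading probe set, 1420360_at, read 43.9, 26.7 and 48.5 in untreated and 44.4, 44.7 and 48.9 in treated mice, around the background level. Untreated mouse 2 was the low value, and without it the change of 0.18 ± 0.16 (SE) became -0.01; without untreated mouse 3 it was 0.29. The other probe set, below background, gave -0.19 ± 0.14 (SE). The DKK1 co-receptor gene Kremen1 gave -0.07 ± 0.13 (SE), and the Wnt co-receptor genes Lrp6 and Lrp5 gave 0.11 ± 0.10 (SE) and 0.04 ± 0.15 (SE), Lrp5 being below background. Without untreated mouse 3 these were 0.05 for Lrp6 and -0.12 for Lrp5. Of 12 listed genes, 11 were measured, 6 of them near background, 0 passed the limma test in either direction, and the median was -0.07. Sfrp2, a secreted Wnt modulator of stromal cells, had the smallest p of the list, with a change of -0.46 ± 0.12 (SE; limma unadjusted p = 0.00728, adjusted p = 0.926) at intensities below background, 20.4 to 23.5 in untreated and 9.18 to 16.3 in treated mice.

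Tnfrsf11b, encoding osteoprotegerin, was not detectable above background. Its probe sets read from 2.84 to 7.30 and from 1.00 to 2.71 over the 6 mice, and the leading one gave -0.14 ± 0.10 (SE). At such levels the sign of its change, counted among the 4 lower means, carries no weight. Its ligand RANKL, encoded by Tnfsf11, read 39.6, 34.1 and 47.1 in untreated and 29.3, 26.2 and 27.5 in treated mice, around the background level. The groups did not overlap, and the change was -0.36 ± 0.11 (SE; limma unadjusted p = 0.0134, adjusted p = 0.967), but 0.25 ± 0.15 (SE) at its other, dimmer probe set. The RANK gene Tnfrsf11a gave -0.06 ± 0.10 (SE). All 6 listed genes of this axis were measured, 0 passed the limma test in either direction, 5 had a lower mean, Tnfsf11 had the smallest p, and the median was -0.10.

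Over the 7 lists together, 53 genes other than the members were measured. In the limma test 0 of them passed after adjustment, where 0% of all genes did, with a lowest adjusted p of 0.926. At an unadjusted p under 0.05, 2 were higher (Met and Ccl9), where 1.78% of all genes were, and 6 lower (Clcf1, Tnfrsf13c, Tnfsf11, Sfrp2, Sdc3 and Sdc4), where 3.52% were. Together they are 15.1% of the 53, against 5.29% of all genes. The groups did not overlap for 18.9% of the 53 against 10.6%. The lists were chosen with earlier results of these data known, so these shares cannot be read as an enrichment. Among the lower genes, Sfrp2 was below background and Tnfsf11 lay around it. The median change was -0.02, and -0.01 over all genes.

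**Figure D4:**
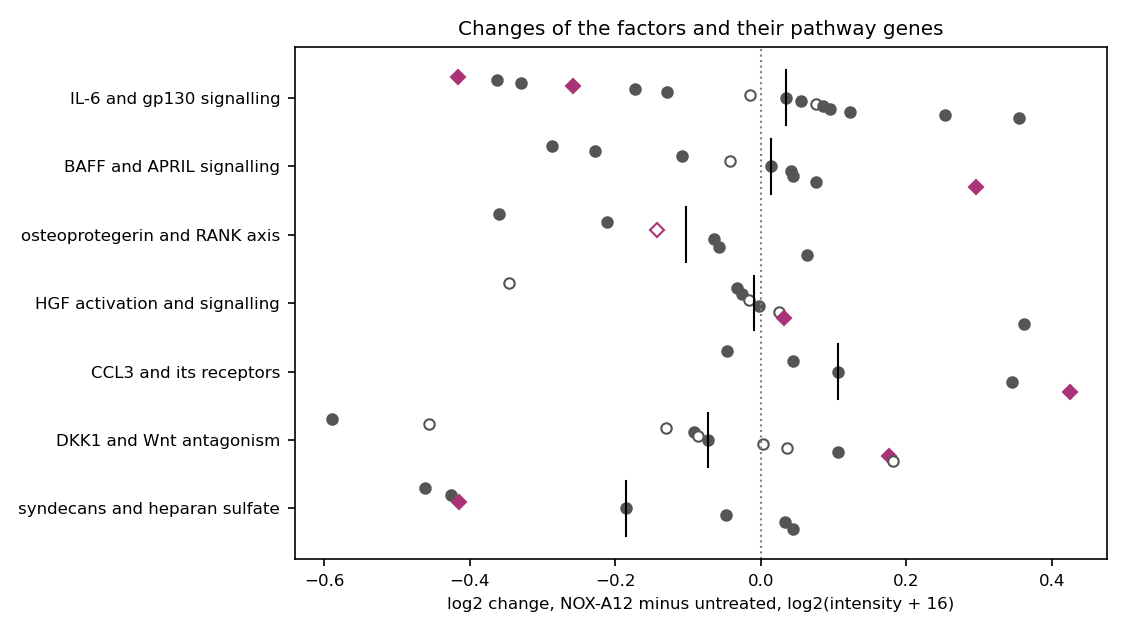
Log2 change (NOX-A12 minus untreated, horizontal axis) at the leading probe set of each gene in the 7 pathway lists; purple diamonds are members of the set, grey circles the other genes, open symbols genes at or below background, and vertical bars list medians. List medians run from -0.19 for syndecans to 0.11 for CCL3 and its receptors, and members lie on both sides of 0.

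For each of the 7 genes above background, the gene with the most similar profile over the 6 mice was found as the smallest root-mean-square difference of per-mouse log2 deviations among 20097 to 20099 probe sets. The profile of Il6st was closest to that of Abca1, a cholesterol exporter gene, at 0.06. Abca1 read 464, 468 and 441 in untreated and 340, 362 and 306 in treated mice. Sdc1 was closest to Cox6a2, a muscle-type cytochrome oxidase subunit gene, at 0.03, with 49.9, 65.9 and 76.5 in untreated and 43.3, 41.9 and 39.3 in treated mice. The Cox6a2 probe set, 1457633_x_at, carries the same suffix as the leading Sdc1 probe set, so both can also match other transcripts. Tnfsf13b was closest to Ttll3 at 0.05, and Il6 to the cholesterol exporter gene Abcg1 at 0.05. Ccl3 was closest to the long noncoding RNA gene Malat1, at 0.14, whose probe set read 722, 289 and 263 in untreated and 719, 683 and 294 in treated mice, high and low in the same animals. Hgf was closest to Fut4 at 0.03, and Dkk1 to Ccr1l1 at 0.05. These likenesses rest on 6 arrays and were picked from many candidates, so they are given as description only.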

How the data were processed

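RNA from whole bone marrow of 6 mice was labelled with biotin and hybridised to 1 array each, per the labels' protocols. The authors deposited 1 table of intensity values per probe set, linear from 0.66 to 16790. How they were summarised and normalized is not given in the sources used here. Sample titles gave the group and number of each mouse.

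Values were used as deposited, transformed to log2(intensity + 16) and compared by limma's moderated test (lmFit and eBayes of version 3.58.1, under R 4.3.3; two-sided, without covariates). P-values were adjusted by Benjamini-Hochberg over all 45037 probe sets, with a threshold of 0.05. The fit was tested on simulated data, with changes larger than any of the members' and only in probe sets brighter than the median. It therefore does not show how well changes of the members' size are found. Probe sets were named through the platform annotation: 34945 had 1 symbol, 932 several and 9160 none listed. A gene was led by its probe set of highest mean. A probe set was near background where both group means were at or below the 95th percentile of 84 olfactory, vomeronasal and taste receptor probe sets. Named genes were all members, 14 fixed receptors, ligands and partners, the gene of smallest p per pathway list and, for members above background, the gene of closest profile; the other genes of the lists that are named were chosen after their values were seen. The members and lists were chosen with earlier results of these data known. Promoter sequences came from RefSeq (GRCm38.p6). Alternatives were other scalings, an offset of 1 or 64, dropping dim probe sets, other variance models, array weights, blocking on the mouse number, omitting each mouse in turn, and other choices of probe set. Figures were drawn with matplotlib 3.10.9.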

Additional observations from a re-analysis of the deposited data

How the results depend on the processing

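In the limma fit with Benjamini-Hochberg adjustment, 0 member probe sets and 0 pathway genes passed under all settings of scaling, offset, filter, variance model, array weights and probe set choice, with the mouse number as a block, and without any 1 mouse. At an unadjusted p under 0.05 the members' count was 3 in the main fit and 2 to 4 without each mouse in turn. It was 2 with an offset of 1 and 2 without probe sets that can match several transcripts. It was 1 when the probe sets of each gene were averaged, which leaves 8 values in place of 20. These counts over settings were added after the data were seen. The number of measured members with a lower treated mean was 4 to 5 without each mouse in turn. With background at the median of all probe sets, 2 members in place of 1 lay near it. Il6st, Sdc1 and Il6 kept a negative and Tnfsf13b and Ccl3 a positive sign under every setting run. The filter, the variance model, the mouse number as a block and 1 probe set per gene leave these changes identical, so their signs were fixed there. Il6st ran from -0.43 to -0.06 over settings with all 6 mice, the smallest being the mean of its probe sets. Sdc1 was -0.17 without probe sets that can match several transcripts. Dkk1 reversed with the mean of its probe sets (-0.0049) and ran from -0.0054 to 0.29 without each mouse. Hgf reversed with array weights (-0.0046) and ran from -0.025 to 0.12. Array weights also reversed Lrp5 (-0.035; -0.12 to 0.12 without each mouse) and Tnfrsf17 (0.042; -0.18 to 0.033), and the mean of its probe sets reversed Tnfrsf11a (0.017). Ccl4 ran from -0.040 to 0.18 and Kremen1 from -0.19 to 0.029 without each mouse. The causes of these reversals were not tested. Mouse numbers name different animals in the groups, and deviations of same-numbered mice correlated at -0.16, 0.09 and 0.04 across probe sets above background. With the mouse number as a replicate block, 0 member probe sets passed. Each group holds mice 1 to 3, so this block cannot move a change. The count of 4 members with a lower mean and the Il6st change of -0.42 only repeat the main fit. Only 6 arrays stand behind each value, and Il6, Dkk1 and Tnfsf11 lie near background.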
